A study of Homo sapiens with 12 samples.

Results

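Immediate early genes outside the AP-1 family were examined in HCT116 colorectal cancer cells in which the nuclear receptor LRH-1 had been targeted with siRNA. A list of 10 genes was used, namely EGR1, EGR3, IER2, IER3, IER5, BTG1, BTG2, ERRFI1, ID1 and ID2. It was chosen with earlier results of these data known, and every named probe of these genes was taken. The list was represented by 11 probes of 9 genes, among 16381 probes and 7452 named genes in the series. BTG2 was not analysed here.

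The cells, an epithelial line from a human colorectal carcinoma, were reverse transfected with 1 of 3 siRNAs at 5 nM, and RNA was taken after 24 h. The groups were siLRH-1 #1, siLRH-1 #2 and siLUC, the last a non-targeting control against luciferase, with 4 Illumina HumanHT-12 v4 arrays each, or 12 arrays in all. HCT116 is a single cell line, and no untransfected cells or other cell line entered the comparisons. The methods describe the samples of a group as independent biological replicates. The p-values set each difference against the spread between these samples, which limma draws towards a value shared by all probes.

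Immediate early genes are transcribed within minutes of a growth factor or stress signal, without new protein synthesis. ERK and related kinases act on ternary complex factors such as ELK1, which bind serum response factor at CArG boxes, and the transcripts are usually short-lived. In intestinal epithelium, growth factor receptor signalling through ERK is a main input to these genes, whereas ID1 and ID2 also answer to bone morphogenetic proteins.

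The promoters of EGR1 and ID1, the genes whose probes moved most, are shown because EGR1 is the textbook target of serum response factor and ID1 is the gene that moved with both siRNAs. Each window runs from 250 bases before the start of transcription to 50 bases from it (300 bases, RefSeq, GRCh38.p14), 5′ to 3′. Entries were found for 8 of the 10 genes, all but EGR3 and IER3. EGR1 lies on chromosome 5 (chr5:138465229-138465528, plus strand) and ID1 on chromosome 20 (chr20:31605039-31605338, plus strand). Capitals in EGR1 mark 1 EGR site followed by 2 CArG boxes, and capitals in ID1 mark a TATA box with its overlapping match on the other strand.
EGR1 promoter: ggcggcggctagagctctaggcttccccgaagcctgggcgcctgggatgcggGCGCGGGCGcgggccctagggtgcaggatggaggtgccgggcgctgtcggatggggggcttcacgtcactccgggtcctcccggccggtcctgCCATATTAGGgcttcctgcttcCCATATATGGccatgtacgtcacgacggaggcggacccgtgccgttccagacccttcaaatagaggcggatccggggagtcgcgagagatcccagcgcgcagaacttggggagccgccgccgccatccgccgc
ID1 promoter: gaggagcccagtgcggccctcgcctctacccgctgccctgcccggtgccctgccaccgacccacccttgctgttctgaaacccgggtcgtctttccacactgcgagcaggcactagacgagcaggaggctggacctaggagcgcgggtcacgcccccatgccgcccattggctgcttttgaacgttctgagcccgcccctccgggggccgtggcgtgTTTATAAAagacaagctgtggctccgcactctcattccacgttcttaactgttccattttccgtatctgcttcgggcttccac

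Both strands were searched for 6 motifs. These were the CArG box, the CRE (TGACGTCA), the EGR site (GCGNGGGCG), the AP-1 site (TGANTCA), the LRH-1 site (CAAGGNCA) and the TATA box (TATAAA). In EGR1 the CArG boxes began 105 and 83 bases before the start, and the EGR site began 198 bases before it. A CArG box was found in 1.29% of 35116 promoters of the same length and an EGR site in 9.43%. The ID1 window held a TATA box 31 bases before the start, overlapped by its reverse match at 33 bases, and 11.5% of promoters held this motif. EGR sites also stood in the windows of BTG2 (2 sites) and ID2 (1 site), and BTG1 had a TATA box 33 bases before the start. None of the 8 windows held an exact match to the letters of the CRE, the AP-1 site or the LRH-1 site. Exact matches were found in 1.85%, 7.71% and 5.28% of all promoters. Near matches were not searched for, so a lack of exact matches does not show that a window lacks such a site. A match is a stretch of letters and was not tested as a binding site.

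The deposited values were log2 intensities after quantile normalisation, so a difference of 1 is a doubling. Brightness depends on the probe as well as on the transcript, and levels were therefore compared between arrays and not between genes. The medians of the 12 arrays ran from 6.49 to 6.50, and arrays of 1 group correlated at 0.996 or above. The number of arrays limits the precision. NR5A2, the gene of LRH-1, was not analysed here, and the extent of the knockdown is therefore not among the values. All 5 epithelial markers examined were measured, with mean log2 values of 8.02 to 12.54, each on the scale of its own probe. Under siLRH-1 #1, CDH1 rose by 0.31 and EPCAM by 0.22, KRT8 fell by 0.23 and KRT18 fell by 0.25 (adjusted p = 0.00126, 0.0108, 0.00617 and 0.00399 from limma), and KRT19 was not called. Of 10 markers of fibroblasts and leukocytes, 5 were measured, at 5.97 to 7.95, and CD68 fell by 0.26 under siLRH-1 #1 (adjusted p = 0.00276 from limma) while the other 4 were not called. None of these 10 measured markers was called with siLRH-1 #2 (lowest adjusted p = 0.0630, for CDH1). Their part in the changes below was not tested. A search over splits of the arrays took the one followed by the residuals of the largest number of probes. It gave a set of 5 (siLRH-1 #1 replicate 3, siLRH-1 #2 replicates 2, 3 and 4, and siLUC replicate 2). The other arrays are the set of 7. This split held over 80% of the residual variance in 105 of 16381 probes, and the next best split did so in 26. This division was found after the data were seen and has no label. siLRH-1 #2 and siLUC stood mainly in opposite sets, so values within the sets are given where they bear on a result.

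The clearest changes were a rise of EGR1 with siLRH-1 #1 alone and a fall of ID1 with both siRNAs. A probe was called at an adjusted p under 0.05 from limma, with Benjamini-Hochberg adjustment over all 16381 probes. With siLRH-1 #1, 3 of the 11 probes were called, against 17.2% of all probes. Of these, 1 was higher than in siLUC (8.05% of all probes) and 2 were lower (9.12%). With siLRH-1 #2, 2 of the 11 were called, against 5.71% of all probes. None was higher (2.86%) and 2 were lower (2.85%). The same 2 probes were called in one direction with both siRNAs, against 3.24% of all probes, and both were lower (1.39%), while none was higher (1.86%). These 2 probes belong to 1 gene, ID1. The comparisons share the siLUC arrays. At an unadjusted limma p under 0.05, 10 of the 11 probes passed with siLRH-1 #1 (28.1% of all probes), 5 of them higher and 5 lower, all but IER5. With siLRH-1 #2, 4 of the 11 passed (17.6% of all probes), namely EGR3, ERRFI1 and the ID1 probes, all lower. Those beyond the called probes did not pass the adjustment. All of the 11 but EGR3 and ID1 ILMN_1665832 had a mean log2 of at least 7, where the median of all probes was 6.48. Shares over probes of like brightness were not computed, so the shares above are no measure of excess. The members were also chosen with earlier results of these data known.

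The 11 probes had a median log2 fold change of -0.07 under siLRH-1 #1, where all probes had 0.01, and of -0.07 under siLRH-1 #2, where all probes had -0.000715. Their median absolute log2 fold change was 0.18 under siLRH-1 #1, beside 0.08 over all probes, and 0.10 under siLRH-1 #2, beside 0.07. Most of the 11 are brighter than the median of all probes, and medians over probes of like brightness were not computed. The residual SD of the 11 probes ran from 0.0711 to 0.184, with a median of 0.109, and the median of all probes was 0.0953.

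**Figure D1:**
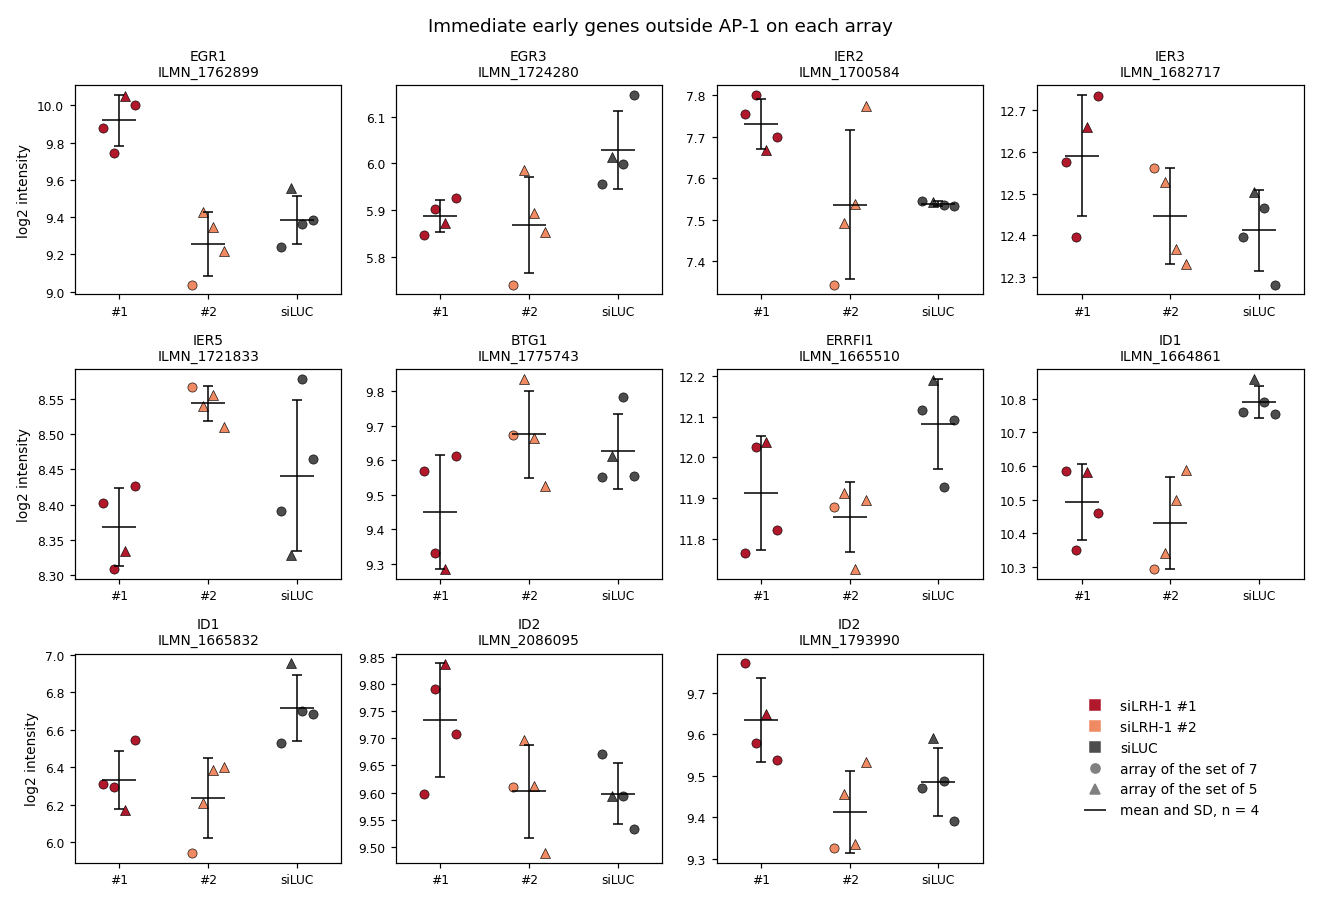
Log2 intensity (vertical axis, own scale in each panel) of the 11 probes on each of the 12 arrays, by siRNA (horizontal axis); points are arrays, triangles and circles mark the sets of 5 and 7 arrays, and bars are the mean and SD of 4 arrays. The siLRH-1 #1 arrays of EGR1 lie between 9.74 and 10.05, above all siLUC arrays, and the siLUC arrays of ID1 ILMN_1664861 lie above all 8 knockdown arrays.

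EGR1 is a zinc finger transcription factor that binds GC-rich sites. Its probe (ILMN_1762899) gave log2 intensities of 9.88, 9.74, 10.05 and 10.00 with siLRH-1 #1. With siLRH-1 #2 they were 9.04, 9.43, 9.35 and 9.22, and with siLUC 9.24, 9.56, 9.36 and 9.38. Every siLRH-1 #1 array stood above every array of the other groups, whereas the siLRH-1 #2 and siLUC arrays overlapped. The means were 9.92 ± 0.138 for siLRH-1 #1, 9.26 ± 0.170 for siLRH-1 #2 and 9.39 ± 0.130 for siLUC (SD, n = 4 each). EGR1 thus rose with siLRH-1 #1 by 0.53 on the log2 scale (standard error 0.084, 95% interval 0.36 to 0.71, adjusted p = 5.47e-05 from limma), or 44.7%. With siLRH-1 #2 the log2 fold change was -0.13 (95% interval -0.30 to 0.04, adjusted p = 0.474 from limma).

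The siRNAs differed in EGR1 by 0.66 (siLRH-1 #1 minus siLRH-1 #2, 95% interval 0.49 to 0.83, adjusted p = 6.51e-06 from limma), a ratio of 1.58. Within the set of 5 arrays, with 1 siLRH-1 #1 and 1 siLUC array, siLRH-1 #1 minus siLUC was 0.50, and within the set of 7 arrays it was 0.55. The siLRH-1 #2 array of the set of 7, replicate 1, had the lowest EGR1 value of all 12 arrays. siLRH-1 #2 minus siLUC was -0.22 in the set of 5 and -0.29 in the set of 7, and with the sets as a block it was -0.24 and passed the threshold (adjusted p = 0.0436 from limma). Since the sets were drawn from the same data, the p-value of the block fit may be too small. The set of 7 holds 1 siLRH-1 #2 array, replicate 1, and the set of 5 holds 1 siLUC array, replicate 2. Without the first of these arrays siLRH-1 #2 minus siLUC was -0.05, without the second -0.07, and without both 0.00160 (adjusted p = 0.883, 0.821 and 0.999 from limma). Without both, the siLRH-1 #2 arrays are all in the set of 5 and the siLUC arrays all in the set of 7. The siRNA and the set cannot be told apart in that comparison.

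EGR3, a related zinc finger factor that EGR1 and growth factor signals induce, was read by a dim probe (ILMN_1724280, mean log2 5.93, below the lower quartile of 6.07 of all probes). It gave 5.85, 5.90, 5.87 and 5.93 with siLRH-1 #1, 5.74, 5.99, 5.89 and 5.85 with siLRH-1 #2, against 5.96, 6.01, 5.998 and 6.15 with siLUC. All siLRH-1 #1 arrays lay below all siLUC arrays, while siLRH-1 #2 overlapped siLUC. The log2 fold change was -0.14 under siLRH-1 #1 (adjusted p = 0.143 from limma), and under siLRH-1 #2 it was -0.16 (adjusted p = 0.166), so that neither passed the threshold.

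ID1 is a helix-loop-helix protein without a DNA-binding region that holds E proteins away from DNA. Its brighter probe (ILMN_1664861) gave 10.58, 10.35, 10.58 and 10.46 with siLRH-1 #1. With siLRH-1 #2 it gave 10.29, 10.34, 10.50 and 10.59, and with siLUC 10.76, 10.86, 10.79 and 10.76. All 8 knockdown arrays lay below all 4 siLUC arrays, and the siRNAs overlapped each other. The means were 10.49 ± 0.113 for siLRH-1 #1, 10.43 ± 0.137 for siLRH-1 #2 and 10.79 ± 0.048 for siLUC (SD, n = 4 each). ID1 fell by 0.30 on the log2 scale with siLRH-1 #1 (standard error 0.071, adjusted p = 0.00407 from limma) and by 0.36 with siLRH-1 #2 (adjusted p = 0.00237 from limma). These are ratios of 0.814 and 0.778 to siLUC. The difference between the siRNAs was 0.06 (95% interval -0.08 to 0.21, adjusted p = 0.680 from limma).

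The other ID1 probe (ILMN_1665832) was dim, with a mean log2 value of 6.43 where the median of all probes was 6.48. It gave 6.31, 6.29, 6.17 and 6.54 with siLRH-1 #1, 5.94, 6.21, 6.38 and 6.40 with siLRH-1 #2, against 6.53, 6.96, 6.70 and 6.68 with siLUC. All siLRH-1 #2 arrays lay below all siLUC arrays, and siLRH-1 #1 replicate 4 overlapped siLUC replicate 1. The log2 fold changes were -0.39 with siLRH-1 #1 (standard error 0.097, adjusted p = 0.00600 from limma) and -0.48 with siLRH-1 #2 (adjusted p = 0.00279 from limma). Across the 12 arrays the ID1 probes correlated with r = 0.833, and with r = 0.479 after group means were removed. This is a description, since the probes share the same arrays and groups.

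The call of ID1 with siLRH-1 #2 was lost when a pair of arrays was left out. Without siLUC replicate 2 and siLRH-1 #2 replicate 1 together, the log2 fold changes were -0.29 for ILMN_1664861 and -0.30 for ILMN_1665832. Neither was called (adjusted p = 0.0767 and 0.100 from limma). The siLRH-1 #2 arrays left are then all in the set of 5 and the siLUC arrays all in the set of 7. The siRNA and the set cannot be told apart there, and calls over all probes fell from 936 to 229. Within the set of 5 arrays ILMN_1664861 differed from siLUC by -0.28 under siLRH-1 #1 and by -0.38 under siLRH-1 #2, and within the set of 7 by -0.30 and -0.47. Within the set of 5 ILMN_1665832 differed by -0.78 under siLRH-1 #1 and by -0.62 under siLRH-1 #2, and within the set of 7 by -0.25 and -0.70. The sets hold 1 array of some groups, so these values stand without a test. When variances were left unmoderated, ILMN_1665832 was called with neither siRNA (adjusted p = 0.0868 and 0.0935).

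ILMN_1665832 had the largest mean absolute change of the 11 probes. The named genes most like it over the 12 arrays, by Pearson correlation, were KCNK18, a potassium channel (r = 0.936), LRRC23, a leucine-rich repeat protein (r = 0.907), and LPIN2, a phosphatidate phosphatase (r = 0.895). LPIN2 had log2 fold changes of -0.31 with siLRH-1 #1 and -0.33 with siLRH-1 #2. KCNK18 had -0.11 and -0.17, and LRRC23 had -0.13 and -0.14. The probes of KCNK18 and LRRC23 were dim (mean log2 6.06 and 6.11). The correlations above pool the groups. After group means were removed, r was 0.906 for KCNK18, 0.776 for LRRC23 and 0.708 for LPIN2, so the probes also varied together within groups. All of these correlations describe 12 arrays.

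ID2, the paralogue of ID1, was read by 2 probes, and neither was called against siLUC. ILMN_2086095 gave 9.60, 9.79, 9.84 and 9.71 with siLRH-1 #1, 9.61, 9.70, 9.61 and 9.49 with siLRH-1 #2, against 9.67, 9.59, 9.59 and 9.53 with siLUC. ILMN_1793990 gave 9.77, 9.58, 9.65 and 9.54 with siLRH-1 #1, 9.33, 9.46, 9.34 and 9.53 with siLRH-1 #2, against 9.47, 9.59, 9.49 and 9.39 with siLUC. The groups overlapped for both probes, except that all siLRH-1 #1 arrays of ILMN_1793990 lay above all siLRH-1 #2 arrays. With siLRH-1 #1 the log2 fold changes were 0.14 for ILMN_2086095 and 0.15 for ILMN_1793990 (adjusted p = 0.175 and 0.147 from limma), and with siLRH-1 #2 they were 0.00429 and -0.07 (adjusted p = 0.987 and 0.662 from limma).

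The siRNAs differed in ILMN_1793990 by 0.22 (95% interval 0.08 to 0.36, adjusted p = 0.0310 from limma) and in ILMN_2086095 by 0.13 (adjusted p = 0.229 from limma). EGR1 and ILMN_1793990 were the 2 of 11 probes called between the siRNAs, against 12.6% of all probes. Both were higher with siLRH-1 #1 (5.84% of all probes) and none was lower (6.79%). At an unadjusted limma p under 0.05, 5 of the 11 differed between the siRNAs (23.5% of all probes), 3 higher and 2 lower with siLRH-1 #1. The call for ILMN_1793990 was lost without any 1 of siLRH-1 #1 replicates 1 and 3 and siLRH-1 #2 replicates 1 and 3, with adjusted p of 0.0823 to 0.124 from limma, and when variances were left unmoderated (adjusted p = 0.0784). The ID2 probes correlated with r = 0.286 over the 12 arrays and r = -0.336 after group means were removed. When the probes were averaged, ID2 was 0.14 higher with siLRH-1 #1 than with siLUC (adjusted p = 0.0422 from limma).

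**Figure D2:**
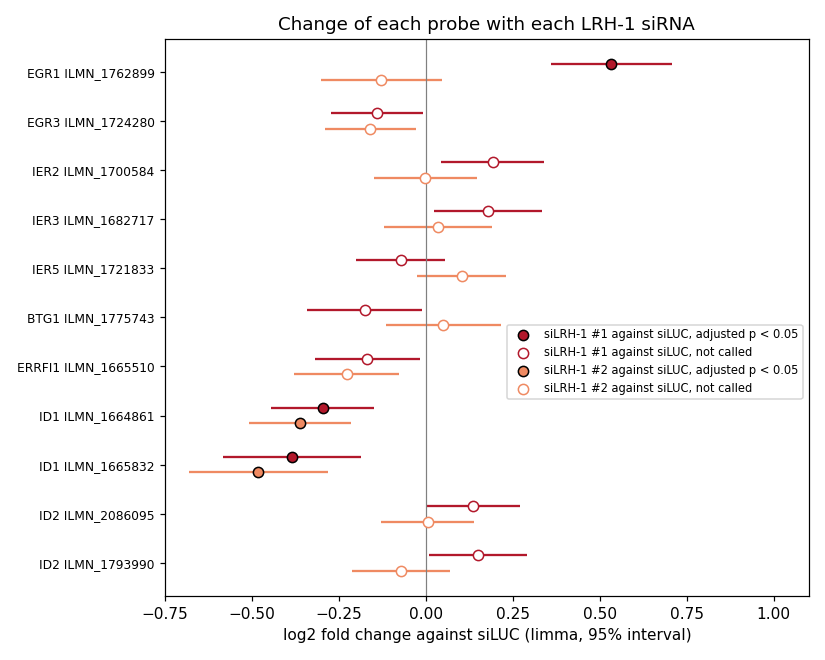
Log2 fold change of each of the 11 probes against siLUC (horizontal axis), siLRH-1 #1 above siLRH-1 #2 in each row; lines are 95% intervals from limma and filled points passed an adjusted p of 0.05. EGR1 with siLRH-1 #1 lies at 0.53, and the ID1 probes lie below 0 with both siRNAs.

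The IER genes encode short-lived products of growth factor and stress responses. With all arrays and probes, none of the 3 measured was called against siLUC by limma, although IER2 and IER3 were under some other settings. IER2, a nuclear protein, came closest. Its probe (ILMN_1700584) gave 7.75, 7.80, 7.67 and 7.70 with siLRH-1 #1, 7.34, 7.49, 7.54 and 7.77 with siLRH-1 #2, against 7.54, 7.54, 7.53 and 7.53 with siLUC. The siLUC arrays lay close together (SD 0.00565), all siLRH-1 #1 arrays were above them, and siLRH-1 #2 spread to both sides (SD 0.179). The log2 fold change with siLRH-1 #1 was 0.19 (standard error 0.072, adjusted p = 0.0704 from limma). It was called without siLRH-1 #2 replicate 1 (adjusted p = 0.0460 from limma) or replicate 4 (adjusted p = 0.0309 from limma). No other omission of 1 array gave a call, and without siLRH-1 #1 replicate 2 it was 0.17 (adjusted p = 0.166 from limma). Calls also came from the 8 arrays of the comparison alone (adjusted p = 0.0308 from limma), over probes with a mean log2 of at least 7 (0.0339) and over gene means (0.0464). None came when variances were left unmoderated (adjusted p = 0.146). With siLRH-1 #2 the log2 fold change was -0.00243 (adjusted p = 0.992 from limma). The siRNAs differed by 0.19 (siLRH-1 #1 minus siLRH-1 #2, adjusted p = 0.0823 from limma). This difference was called without siLRH-1 #2 replicate 4 (0.27, adjusted p = 0.00670 from limma) and over probes with a mean log2 of at least 7 (0.0373).

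IER3, a regulator of apoptosis, was read by a bright probe (ILMN_1682717). It gave 12.57, 12.40, 12.66 and 12.73 with siLRH-1 #1, 12.56, 12.53, 12.37 and 12.33 with siLRH-1 #2, against 12.40, 12.50, 12.47 and 12.28 with siLUC. The 3 groups overlapped. The log2 fold change was 0.18 with siLRH-1 #1 (adjusted p = 0.115 from limma) and 0.03 with siLRH-1 #2 (adjusted p = 0.878 from limma). Without siLRH-1 #1 replicate 2, the lowest array of its group, the comparison of siLRH-1 #1 with siLUC gave 0.24 and was called (adjusted p = 0.0270 from limma). No other omission of 1 array gave a call. Without siLRH-1 #1 replicate 4, the highest of its group, the value was 0.13 (adjusted p = 0.318 from limma).

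IER5, a regulator of heat shock factor, was read by ILMN_1721833. It gave 8.40, 8.31, 8.33 and 8.43 with siLRH-1 #1, 8.57, 8.54, 8.56 and 8.51 with siLRH-1 #2, against 8.39, 8.33, 8.58 and 8.47 with siLUC. All siLRH-1 #1 arrays lay below all siLRH-1 #2 arrays, and siLUC overlapped both. The siRNAs differed by -0.18 (siLRH-1 #1 minus siLRH-1 #2, adjusted p = 0.0676 from limma), by -0.20 within the set of 5 arrays and by -0.19 within the set of 7. With the sets as a block the difference was -0.21 and was called (adjusted p = 0.0344), as it was over probes with a mean log2 of at least 7 (0.0249), with 16 added before log2 (0.0451) and over gene means (0.0297). Over the probes with a mean log2 of at least 7 and over gene means the difference itself stayed -0.18. It was not called when variances were left unmoderated (adjusted p = 0.0654) or with an intensity trend (0.0620 from limma). No omission of 1 array gave a call, and without siLRH-1 #1 replicate 3 the difference was -0.16 (adjusted p = 0.175 from limma). Against siLUC the log2 fold changes were -0.07 with siLRH-1 #1 and 0.10 with siLRH-1 #2 (adjusted p = 0.501 and 0.431 from limma).

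The antiproliferative and feedback members, BTG1 and ERRFI1, did not pass the threshold against siLUC with all arrays and probes, although ERRFI1 did under several other settings. BTG1, an antiproliferative protein that binds the CCR4-NOT deadenylase, was read by ILMN_1775743. It gave 9.57, 9.33, 9.28 and 9.61 with siLRH-1 #1, 9.67, 9.84, 9.66 and 9.53 with siLRH-1 #2, against 9.55, 9.61, 9.78 and 9.55 with siLUC. The groups overlapped. The log2 fold changes were -0.18 with siLRH-1 #1 and 0.05 with siLRH-1 #2 (adjusted p = 0.149 and 0.830 from limma). The siRNAs differed by -0.22 (adjusted p = 0.0692 from limma), which was called without siLRH-1 #1 replicate 1 or 4, or without siLRH-1 #2 replicate 4 (adjusted p = 0.0469, 0.0311 and 0.0342). It was also called over probes with a mean log2 of at least 7 (adjusted p = 0.0347), with 16 added (0.0467) and in the fit with a term for the array sets (-0.26, adjusted p = 0.0461). Without siLRH-1 #1 replicate 3 or siLRH-1 #2 replicate 2 it was -0.17 each time and was not called (adjusted p = 0.274 and 0.222 from limma). Nor was it called when variances were left unmoderated (adjusted p = 0.203). Within the set of 5 the difference was -0.39 and within the set of 7 it was -0.17.

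ERRFI1 (also MIG6) binds and inhibits the EGF receptor as negative feedback. Its probe (ILMN_1665510) gave 11.76, 12.03, 12.04 and 11.82 with siLRH-1 #1, 11.88, 11.91, 11.73 and 11.90 with siLRH-1 #2, against 12.12, 12.19, 11.93 and 12.09 with siLUC. All siLRH-1 #2 arrays lay below all siLUC arrays, while siLRH-1 #1 overlapped siLUC. The log2 fold changes were -0.17 with siLRH-1 #1 (adjusted p = 0.128 from limma) and -0.23 with siLRH-1 #2 (standard error 0.073, adjusted p = 0.0708 from limma). Without siLUC replicate 3, the lowest siLUC array, the log2 fold change with siLRH-1 #2 became -0.28 and was called (adjusted p = 0.0312 from limma). It was also called in the fit with a term for the array sets (-0.28, adjusted p = 0.0312), over probes with a mean log2 of at least 7 (0.0299), with 16 added (0.0410), with an intensity trend (0.0323) and over gene means (0.0453). No other omission of 1 array gave a call. Without siLUC replicate 2 or siLRH-1 #2 replicate 3 it was -0.19 each time (adjusted p = 0.253 and 0.197 from limma). Nor was it called when variances were left unmoderated (adjusted p = 0.189). siLRH-1 #2 minus siLUC was -0.35 within the set of 5 and -0.17 within the set of 7.

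Some arrays were the highest or lowest of their group for 5 or 6 of the 11 probes. siLUC replicate 2 was the highest siLUC array for 6 of them, and siLRH-1 #2 replicate 1 the lowest of its group for 6. siLRH-1 #1 replicate 4 was the highest of its group for 5 probes, and siLRH-1 #2 replicate 2 likewise for 5. siLUC replicate 4 was the lowest of its group for 5. ID1 and ID2 count with 2 probes each. Counts over all probes were not computed, so these counts are no measure of an array effect. The part of these arrays in the results beyond the values above was not tested.

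Related genes were described from lists written with earlier results of these data known, using the brightest probe of each gene. Of 50 other immediate early genes, AP-1 members included, 32 were measured. With siLRH-1 #1, 11 rose and 6 fell, against 11.2% and 12.3% of the 7452 genes. With siLRH-1 #2, 7 rose and 2 fell, against 4.41% and 3.97%. In one direction with both siRNAs, 6 rose and 2 fell, against 2.84% and 1.93%, and 14 passed the test with neither, or 43.8%, beside 72.9% of all genes. At an unadjusted limma p under 0.05 the list had 12 genes higher and 6 lower with siLRH-1 #1, against 18.2% and 17.6% of all genes, and 8 higher and 6 lower with siLRH-1 #2, against 12.3% and 11.0%. The median log2 fold changes of the 32 were 0.04 and 0.05, beside 0.01 and 0.00276 over all genes.

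DUSP1, a phosphatase that switches off MAP kinases, rose by 0.78 with siLRH-1 #1 and 0.38 with siLRH-1 #2 on the log2 scale (adjusted p = 1.56e-09 and 0.000266 from limma). CCN1, a secreted matrix protein, rose by 0.59 and 0.30 (adjusted p = 9.41e-08 and 0.00243 from limma), and both genes were higher with siLRH-1 #1 than with siLRH-1 #2 (adjusted p = 4.48e-05 and 0.00125 from limma). FOS, a subunit of AP-1, rose by 0.44 with siLRH-1 #1 and 0.26 with siLRH-1 #2 (adjusted p = 1.69e-05 and 0.0137 from limma). FOSL1, another AP-1 subunit, fell by 0.82 and 0.46 (adjusted p = 1.39e-09 and 5.06e-05 from limma). Rising and falling genes were therefore both present in the list.

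**Figure D3:**
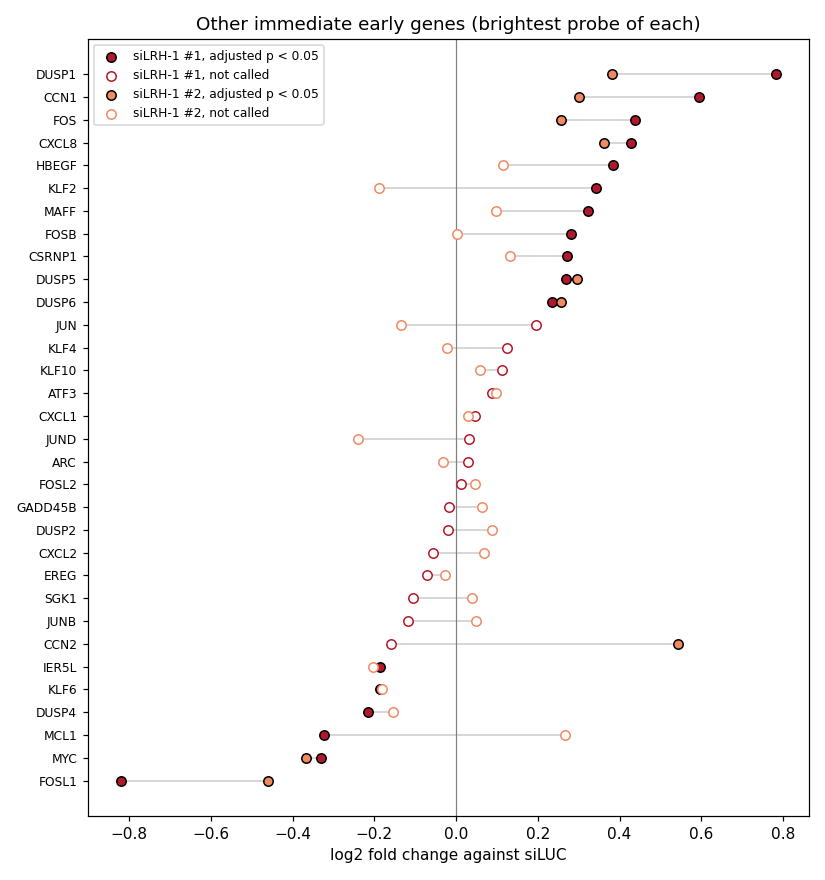
Log2 fold change against siLUC (horizontal axis) of the 32 other immediate early genes measured, 1 row each, with siLRH-1 #1 and siLRH-1 #2 as separate points joined by a line; filled points passed an adjusted p of 0.05 from limma. DUSP1 and CCN1 stand at the top and FOSL1 at the bottom.

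Of 26 genes of the ERK and serum response factor pathway, 15 were measured, and 12 passed the test with neither siRNA, or 80.0%, beside 72.9% of all genes. With siLRH-1 #1, 1 rose and 2 fell, where 11.2% of all genes rose and 12.3% fell. With siLRH-1 #2 none was called by limma, where 4.41% of all genes rose and 3.97% fell. At an unadjusted limma p under 0.05, 4 were higher and 3 lower with siLRH-1 #1, against 18.2% and 17.6% of all genes. With siLRH-1 #2, 1 was higher and 1 lower at that threshold, against 12.3% and 11.0%. The called counts lie near the shares over all genes or below them. ELK1, a ternary complex factor, fell by 1.08 with siLRH-1 #1 (adjusted p = 5.46e-09 from limma). Its log2 fold change was -0.04 with siLRH-1 #2 (adjusted p = 0.889 from limma). Its relatives ELK3 and ELK4 were called with neither siRNA, at 0.06 and 0.09 under siLRH-1 #1 (adjusted p = 0.573 and 0.475 from limma). The ELK3 probe was dim (mean log2 6.36). ERBB3, a receptor of the EGF receptor family, fell by 0.75 with siLRH-1 #1 (adjusted p = 7.76e-08) and stood at -0.14 under siLRH-1 #2 (adjusted p = 0.320). GRB2, an adaptor between receptors and RAS, rose under siLRH-1 #1 by 0.21 (adjusted p = 0.0259) and stood at -0.02 under siLRH-1 #2 (adjusted p = 0.940). ELK1 differed between the siRNAs by -1.04 (adjusted p = 2.06e-08 from limma).

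Of 6 co-repressors and relatives of EGR proteins, 2 were measured. With siLRH-1 #1, 1 rose and 1 fell, where 11.2% of all genes rose and 12.3% fell. With siLRH-1 #2 neither was called, where 4.41% rose and 3.97% fell. NAB1, which binds EGR proteins and represses their targets, fell by 0.66 with siLRH-1 #1 (adjusted p = 2.78e-05 from limma), against a log2 fold change of 0.21 with siLRH-1 #2 (adjusted p = 0.253). NAB2, its paralogue, rose under siLRH-1 #1 by 0.19 (adjusted p = 0.0417) and stood at -0.05 under siLRH-1 #2 (adjusted p = 0.760). Both differed between the siRNAs, by -0.88 for NAB1 and 0.25 for NAB2 (adjusted p = 1.33e-06 and 0.0122 from limma). Of all 7452 genes, 1346 were called between the siRNAs, and 2 genes are too few to read as a result about the list.

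Among 17 BTG and TOB relatives and CCR4-NOT subunits, 9 were measured and 7 passed the test with neither siRNA, or 77.8%, beside 72.9% of all genes. With siLRH-1 #1, 2 rose, with siLRH-1 #2 and with both 1 rose, and none was called lower by limma. At an unadjusted limma p under 0.05, 3 were higher with siLRH-1 #1 (18.2% of all genes) and 1 with siLRH-1 #2 (12.3%). None was lower at that threshold, against 17.6% and 11.0% of all genes. Of all genes, 11.2% were called higher under siLRH-1 #1, 4.41% under siLRH-1 #2 and 2.84% with both. The counts of so few genes are not a result about the list. BTG3, an antiproliferative relative of BTG1, rose by 0.71 with siLRH-1 #1 and 0.57 with siLRH-1 #2 (adjusted p = 6.90e-08 and 1.55e-05 from limma), where BTG1 was not called. CNOT7, a deadenylase subunit, rose under siLRH-1 #1 by 0.22 (adjusted p = 0.0267) and stood at 0.11 under siLRH-1 #2 (adjusted p = 0.477).

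Of 20 ID partners and genes of bone morphogenetic protein signalling, 7 were measured and 5 passed the test with neither siRNA, or 71.4%, beside 72.9% of all genes. With siLRH-1 #1, 2 rose, with siLRH-1 #2 and with both 1 rose, and none was called lower by limma. At an unadjusted limma p under 0.05, 3 were higher and 1 lower with siLRH-1 #1, against 18.2% and 17.6% of all genes. With siLRH-1 #2, 3 were higher and none lower at that threshold, against 12.3% and 11.0%. For the called genes the shares of all genes are again 11.2%, 4.41% and 2.84%, and the counts are too small to read. BAMBI, a pseudoreceptor that dampens this signalling, rose by 0.29 with siLRH-1 #1 and 0.22 with siLRH-1 #2 (adjusted p = 0.00185 and 0.0366 from limma). ACVR1, a receptor of the pathway, rose under siLRH-1 #1 by 0.43 (adjusted p = 7.45e-06) and stood at 0.15 under siLRH-1 #2 (adjusted p = 0.152). ID3, another relative of ID1, was not called with either siRNA, at log2 fold changes of -0.04 under siLRH-1 #1 and -0.06 under siLRH-1 #2.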

How the data were processed

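Each of 12 HCT116 RNA samples was hybridised to 1 HumanHT-12 v4 array (Illumina). The authors used GenomeStudio for the images, dropped every probe whose detection p exceeded 0.05 in all samples, and deposited log2 intensities after quantile normalisation in Partek. Quantile normalisation would hide a shift of most transcripts in 1 direction. These log2 values were used unchanged, and 24 columns of a non-normalised table that the labels tie to no sample were not used. Tool versions are not given in the sources used here.

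A model with 3 groups was fitted to each of 16381 probes with limma 3.58.1 in R 4.3.3 (9 residual and 14.6 prior degrees of freedom), over all 12 arrays. Benjamini-Hochberg adjustment was made over all probes, and the threshold was 0.05. The fit was tested on simulated data. Of the probes, 9910 had 1 gene symbol in the platform annotation, 4 had several and 6467 had none, and RefSeq gene IDs, found for 9904, changed 0 symbols. All named probes of the 10 genes were described, with up to 4 genes of each related list. Those called with both siRNAs came first, then by size of change, brightest probe per gene. ELK3 and ELK4 were added beside ELK1. The members and lists were chosen with earlier results of these data known. EGR3, IER2 and IER5 values rest on 1 probe each, as do those of EGR1, IER3, BTG1 and ERRFI1. Motifs and plots used Python 3.11.15 and matplotlib 3.10.9. The TATA box was added to the motifs after the sequences were seen.

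Each result was also computed with replicate numbers as a block, without moderation of the variances, from only the 8 arrays of a comparison, with limma's array weights, at a stricter threshold of 0.01 and without each array in turn. Further settings were probes with a mean log2 of 7 or more, a constant of 16 added to the linear values, a variance prior that follows intensity, subtraction of array medians, and 1 averaged value per gene. The 2 sets of arrays, as a block or separately, and the omission of 2 arrays at once were chosen after the data were seen.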

Additional observations from a re-analysis of the deposited data

Results flagged for a closer look

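EGR1 was set apart because its change differed between the siRNAs. siLRH-1 #1 minus siLRH-1 #2 was 0.66 on the log2 scale (adjusted p = 6.51e-06 from limma), higher in all 4 siLRH-1 #1 arrays than in all 4 siLRH-1 #2 arrays.

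The ID2 probe ILMN_1793990 was set apart for the same reason, with a difference of 0.22 (siLRH-1 #1 minus siLRH-1 #2, adjusted p = 0.0310 from limma). The other ID2 probe, ILMN_2086095, differed by 0.13 and was not called (adjusted p = 0.229 from limma).

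Each of the 33 sets of 4 arrays (11 probes in 3 groups) was examined for 1 array far from the other 3 by Dixon's criterion at the 95% level, and 0 had one. Chance alone gives about 1 in 20.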

How the results depend on the processing

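In the order siLRH-1 #1 against siLUC, siLRH-1 #2 against siLUC, siLRH-1 #1 against siLRH-1 #2, and both siRNAs in one direction, 3, 2, 2 and 2 of the 11 probes were called. With the replicate block the counts stayed 3, 2, 2 and 2. Deviations of same-numbered arrays correlated by -0.04 to 0.04 over 12 pairs, so the numbers give no pairing. Each probe's own variance gave 2, 1, 1 and 1 (over all probes 2322, 367, 1456 and 301), and an adjusted p under 0.01 gave 3, 2, 1 and 2 (1715, 466, 1194 and 257). A mean log2 of at least 7, which leaves out EGR3 and the dim ID1 probe, gave 3, 2, 5 and 1 (2590, 1256, 2131 and 705). These calls include IER2 with siLRH-1 #1 and ERRFI1 with siLRH-1 #2, both uncalled over all probes. The number of probes left by that setting, and so the share called, is not given here. Adding 16 before log2 gave 3, 3, 4 and 2 (2978, 1113, 2239 and 629), the intensity trend 3, 3, 2 and 2, and averaging the probes of a gene 4, 2, 3 and 1 of 9 genes. Leaving out 1 array gave 3 to 4, 2 to 3, 1 to 4 and 2 to 2. Of the settings chosen after the data were seen, the 2 sets of arrays as a block gave 3, 4, 4 and 2 (2816, 1428, 2482 and 567), the set of 5 alone 1, 1, 1 and 1 (351, 273, 975 and 55), the set of 7 alone 2, 2, 3 and 1 (1956, 366, 991 and 147), and the omission of siLUC replicate 2 with siLRH-1 #2 replicate 1 gave 3, 0, 1 and 0 (2495, 229, 1289 and 169). The calls over all probes with every array were 2813, 936, 2068 and 531. In the sets alone some groups have 1 array, assumed to vary like the others, so a call lost there does not bear on the size of a change. The omission of siLUC replicate 2 with siLRH-1 #2 replicate 1 leaves siLRH-1 #2 and siLUC in opposite sets, so siRNA and set cannot be told apart. For single probes, 852 values under other settings were set against the ones reported: 782 kept both direction and call, 23 stayed uncalled but changed sign, 17 lost the call, 30 gained one and 0 called values reversed. Apart from the fewer probes or arrays that a setting itself leaves, the cause of each change was not tested.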
